A study of Mus musculus with 23 samples.

Results

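EO771 is the name used here for EO771.LMB, a mouse breast carcinoma cell line, and for the tumors it forms. The 3 EO771 tumors were chosen by the cell line in their labels, out of 15 whole-tumor RNA-seq libraries in a series of 23 samples, and were compared with the 12 tumors of the other 4 models, with 3 tumors in each. The other models were B16 (from B16-F10 melanoma cells), LL2 (from LL2 lung carcinoma cells), MC38 (colon carcinoma) and Pan02 (pancreatic ductal carcinoma). All 5 lines come from C57BL/6 mice, and equal numbers of cells were injected in the flank of adult female C57BL/6 mice with no further treatment. A breast carcinoma line thus grew in the flank and not in the mammary gland, each model was 1 cell line, and ulcerated tumors were left out by the study. A fragment of the whole excised tumor was used, so that cancer cells, infiltrating immune cells, fibroblasts and vessels all gave RNA. The remaining 8 samples were cancer-associated fibroblasts (CAFs) sorted from EO771, LL2, MC38 and Pan02 tumors as CD45- FAP+ cells, with 2 libraries per model. The labels do not say whether the 3 tumors of a model came from 3 mice, so the p-values measure only the spread between these samples.

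Luminal breast epithelium is built on the keratin pair Krt8 and Krt18, while basal mammary cells carry Krt5, Krt14 and Krt17. Transforming growth factor beta (TGF-beta) is secreted in a latent form, is freed by integrins and proteases, and signals through receptor kinases to Smad proteins, which switch on target genes together with inhibitors such as Smad7. Placental and germ line genes are silent in most adult tissues, where DNA methylation at their promoters holds many of them off, and tumor cell lines are known to express some of them.

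Depth ran from 11496860.5 to 19002304 counts in the EO771 tumors and from 10035180 to 21946495 in the 12 others, over one row per gene symbol. Levels are in CPM, counts relative to the library total with TMM scaling, and log2 fold changes compare EO771 with the mean of the log2 levels of the 4 other models. A gene is called higher or lower where the Benjamini-Hochberg adjusted p of edgeR's quasi-likelihood test was under 0.05 and the log2 fold change reached 1 in size. The log2 levels of the 3 EO771 tumors correlated at 0.987 to 0.988 across genes, against 0.887 to 0.902 with LL2, 0.866 to 0.891 with MC38, 0.828 to 0.848 with Pan02 and 0.790 to 0.813 with B16. One library stood apart. In MC38 tumor 1, the 21 genes most typical of EO771 (a log2 fold change of 5 or more, with 50 CPM or more in EO771) lay at a median of 6.22% of their EO771 level, against 1.49% and 1.56% in the other MC38 tumors and 0.143% to 0.963% in the B16, LL2 and Pan02 tumors. That tumor was the highest of the 3 MC38 tumors for 19 of these 21 genes. The count of genes restricted to EO771 and the fold changes of Hand1, Sohlh2 and Esx1 are given with and without it.

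Of 15732 genes tested, 1528 (9.71%) were higher in EO771 than in the mean of the other models and 2149 (13.7%) were lower, and the median log2 fold change over all of them was -0.04. A stricter count asked for a call against each of the 4 models, and 384 genes (2.44%) were higher than all 4 while 374 (2.38%) were lower than all 4. Model by model, 17.8% of genes were higher and 16.6% lower than in B16, 9.38% higher and 12% lower than in LL2, 10.6% higher and 14% lower than in MC38, and 12.5% higher and 22.2% lower than in Pan02. These 4 comparisons share the EO771 tumors. All 3 EO771 tumors lay above the other 12 for 9.75% of genes and below them for 7.02%, whether or not the gene was called. Among the genes called, 804 of the 1528 higher ones (52.6%) and 689 of the 2149 lower ones (32.1%) had no overlap with any other tumor. In whole tumors, fewer cells of a type and less RNA per cell cannot be told apart.

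The 12 genes raised most in EO771 were taken from those called higher, with a mean of at least 10 CPM in EO771. All 3 EO771 tumors also had to lie above the other 12, so the lack of overlap was set by the choice. Of these 12 genes, 5 are known from placenta, gonad or germ line: Hand1, Sohlh2, Esx1, Tex19.1 and Nr5a1. All but Esx1 lay under 1 CPM in every B16, LL2 and Pan02 tumor. Hand1, a bHLH transcription factor needed in trophoblast giant cells and in the heart, lies in mm10 at chr11:57828713-57832147. It was counted at 178, 148 and 179.5 CPM in the EO771 tumors (168 ± 17.7 CPM, SD, n = 3). No B16, LL2 or Pan02 tumor exceeded 0.313 CPM, and the MC38 tumors held 8.43, 0.943 and 0.479 CPM. Hand1 had a log2 fold change of 8.78 (SE 0.48, edgeR adjusted p = 1.2e-08). The range was 8.66 to 9.33 when each tumor was left out in turn, the highest being without MC38 tumor 1. Sohlh2, a bHLH factor of early oocytes and spermatogonia at chr3:55182044-55209957, was counted at 31.7, 30.9 and 28.5 CPM in EO771 and reached 1.25 CPM in MC38 tumor 1 as its highest value elsewhere. It was at 0 in every LL2 tumor, and with a floor of 3 counts per library EO771 was at least 166-fold higher than LL2. Its fitted log2 fold change against all 4 models was 9.20 (SE 0.43, edgeR adjusted p = 2e-08), or 8.30 with LL2 set to that floor, and 9.42 without MC38 tumor 1.

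Esx1, an X-linked homeobox gene of the placenta at chrX:137115397-137120326, was the most abundant of this group, with 1616, 1596 and 1606 CPM in EO771. The other 12 tumors ranged from 1.21 to 74.6 CPM with a median of 3.83 CPM, and the highest was again MC38 tumor 1, ahead of 10.8 CPM in an LL2 tumor. Its log2 fold change was 8.16 (SE 0.47, edgeR adjusted p = 1.9e-08), and 8.63 without that tumor. Tex19.1, which guards germ cells and placenta against retrotransposons, was counted at 97.7, 91.5 and 81.3 CPM in EO771, at 7.81 to 10.4 CPM in the 3 MC38 tumors and at 0.337 CPM or less elsewhere (log2 fold change 7.73, SE 0.18, edgeR adjusted p = 5.9e-12). Nr5a1, the steroidogenic factor of adrenal and gonad, had 124, 115 and 118 CPM in EO771, 29.9 to 43.3 CPM in MC38 and no more than 0.342 CPM in B16, LL2 and Pan02. For these last 2 genes all 3 MC38 tumors carried the transcript, not tumor 1 alone, and EO771 exceeded MC38 by a log2 fold change of 3.30 for Tex19.1 and 1.69 for Nr5a1.

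The promoters of Sohlh2, Esx1 and Tex19.1 are shown because they are the placental and germ line genes among the 12 raised most that have an entry in the promoter table. Each is the RefSeq GRCm38.p6 window from 250 bases before to 50 bases after the transcript start, read 5′ to 3′ on the gene's strand, with every CG dinucleotide, the letters that DNA methylation acts on, in capitals.
Sohlh2, chr3:55181794-55182093, plus strand: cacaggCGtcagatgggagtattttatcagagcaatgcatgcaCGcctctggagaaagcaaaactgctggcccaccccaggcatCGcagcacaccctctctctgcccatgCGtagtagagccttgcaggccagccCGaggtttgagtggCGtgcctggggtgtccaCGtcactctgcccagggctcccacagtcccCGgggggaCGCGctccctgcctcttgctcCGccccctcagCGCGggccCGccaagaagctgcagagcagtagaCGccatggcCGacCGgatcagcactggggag
Esx1, chrX:137120277-137120576, minus strand: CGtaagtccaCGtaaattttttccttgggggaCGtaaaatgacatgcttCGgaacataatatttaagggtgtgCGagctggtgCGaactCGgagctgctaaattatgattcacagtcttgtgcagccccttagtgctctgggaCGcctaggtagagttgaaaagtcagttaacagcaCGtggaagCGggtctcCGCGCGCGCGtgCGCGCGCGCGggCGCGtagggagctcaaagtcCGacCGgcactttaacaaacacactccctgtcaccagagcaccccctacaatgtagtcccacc
Tex19.1, chr11:121145893-121146192, plus strand: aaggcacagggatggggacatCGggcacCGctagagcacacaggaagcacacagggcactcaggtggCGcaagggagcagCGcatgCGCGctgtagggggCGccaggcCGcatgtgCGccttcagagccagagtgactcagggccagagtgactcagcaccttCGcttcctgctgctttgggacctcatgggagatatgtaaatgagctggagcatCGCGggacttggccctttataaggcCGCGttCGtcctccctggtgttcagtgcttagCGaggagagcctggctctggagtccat
Counted on 1 strand (CG reads the same on the other), Sohlh2 held 17 CG dinucleotides, Esx1 held 24 and Tex19.1 held 16. Of all 32851 promoters in the table, 31.4% held at least 17, 20.0% at least 24 and 33% at least 16, and the median was 7. Methylation was not measured in these samples, and the counts describe the letters only.

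**Figure D1:**
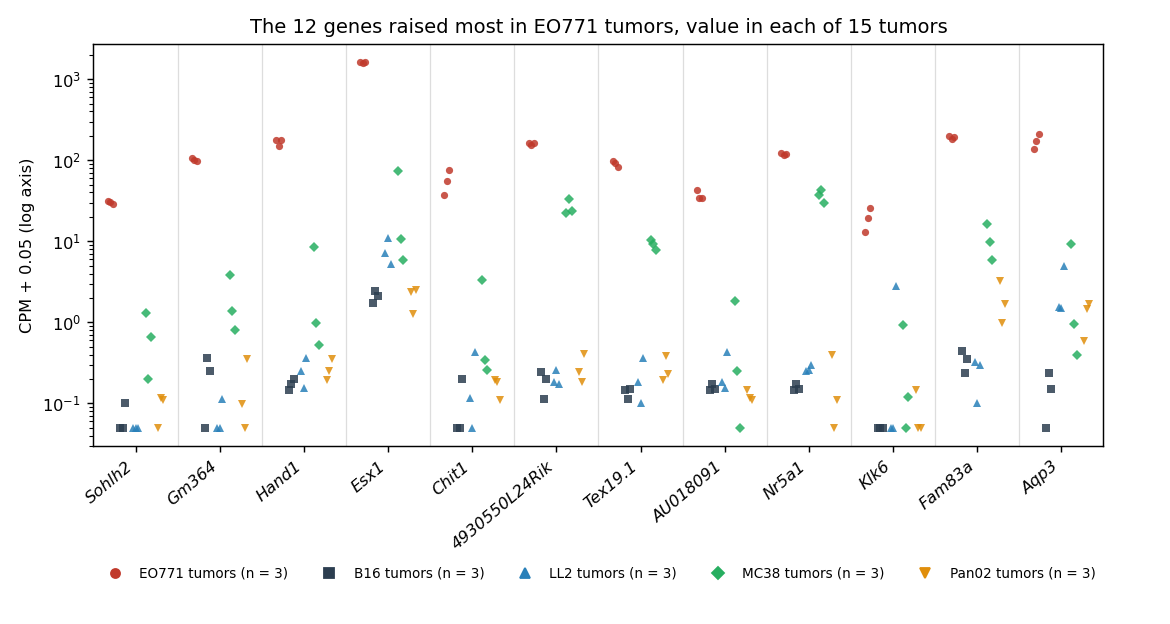
Level of the 12 genes raised most in EO771 (horizontal axis) in each of the 15 tumors (vertical axis, CPM + 0.05 on a log scale), with 1 point per tumor and 1 symbol per model. The EO771 points sit at the top for every gene because the genes were chosen so. An MC38 point comes next for most of them, as for Hand1 with 8.43 CPM in MC38 tumor 1 against 148 CPM in the lowest EO771 tumor.

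The other genes among the 12 raised most included Fam83a, an adaptor of growth factor signaling, with 197, 181 and 194 CPM in EO771 and 16.3 CPM as the highest value elsewhere (log2 fold change 7.52, SE 0.27). Aqp3, a water and glycerol channel of epithelia, had 138, 174 and 208 CPM against at most 9.24 CPM. Their lack of overlap with the other tumors was part of the rule that chose them. Chit1, which encodes a chitinase, varied more between EO771 tumors, with 36.8, 55.3 and 75.4 CPM, and had 3.27 CPM as its highest value elsewhere (log2 fold change 8.10, SE 0.56). Klk6, a secreted serine protease, was counted at 13.1, 19.2 and 25.6 CPM and was at 0 in every B16 tumor. It was at least 91.8-fold higher than B16 at the floor of 3 counts. The uncharacterized genes Gm364 (106, 102 and 98.8 CPM), 4930550L24Rik (163, 156 and 164 CPM) and AU018091 (42.3, 34.2 and 34.5 CPM) completed the 12, and each was called higher than all 4 models.

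A strict description asked for at least 10 CPM in each EO771 tumor and at most 1 CPM in each of the others. Only Cpne5, a calcium-dependent membrane-binding protein, met it, with 10.1, 10.4 and 11.5 CPM in EO771 and 0.963 CPM or less elsewhere, and it did not meet it when tumors were scaled by total count. Without MC38 tumor 1 the count was 7, with Hand1, Sohlh2, Chit1, AU018091, Esyt3 and Sbk3 added, and without any MC38 tumor it was 21. No gene met the reverse rule of at most 0.5 CPM in each EO771 tumor and at least 5 CPM in each of the others.

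Hand1 and Esx1 belong to a list of placental genes whose other members went both ways. Of 15 trophoblast genes tested, 4 were higher and 6 lower, with a median log2 fold change of 0.20, against 9.71% and 13.7% over all genes. Phlda2, an imprinted brake on placental growth, had 44.5, 45.0 and 38.9 CPM in EO771 against at most 1.88 CPM elsewhere (log2 fold change 6.82, SE 0.42), and Dlx3, a homeobox factor of the placenta, had 4.40, 4.16 and 4.36 CPM against at most 2.83 CPM. Among the lower genes, the imprinted retrotransposon-derived gene Peg10 was counted at 0.477, 1.02 and 0.959 CPM in EO771, below all 12 others, which ranged from 1.96 to 102 CPM (log2 fold change -4.85, SE 0.39, edgeR adjusted p = 3.7e-07). H19 had 2.28, 2.63 and 1.48 CPM against a median of 57.5 CPM, and Eomes and Cdx2, factors of trophoblast stem cells, were also called lower at under 1 CPM in EO771. The placental hormone gene Prl2c2 was counted at 0.212, 0 and 0 CPM. Of 8 tested trophoblast regulators 3 were higher and 2 lower, and of 7 tested products 1 was higher and 4 were lower. DESeq2 called 2 of the list higher and gave no adjusted p for Hand1 and Esx1.

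Sohlh2 and Tex19.1 belong to a list of germ cell genes. Of its 22 members 10 passed the filter on low counts, which also lets in a gene that is high in EO771 alone, and 5 were called higher and none lower (median log2 fold change 1.31, or 0.44 with genes at 0 set to the floor). Piwil2, a partner of small RNAs that silence transposons, had 55.2, 57.1 and 62.6 CPM in EO771 against 1.12 to 7.27 CPM in the others (log2 fold change 4.24, SE 0.33, edgeR adjusted p = 2.4e-07). Tex101 and Zp3 were called higher at a mean of 0.197 and 0.320 CPM, close to the level of a few reads, but both were lower than in MC38 (3.03 to 4.77 CPM and 0.822 to 1.44 CPM). Tex101 was at 0 in every B16 and LL2 tumor, and with these models set to the floor its log2 fold change turned from 1.82 to -0.51. Among 14 tested regulators of mesoderm and heart, where Hand1 is also listed, 5 were higher and 6 lower (median log2 fold change -1.09). With B16 left out of the mean 2 were higher and 6 lower. By model, 6 were higher than in B16, 1 than in LL2, 2 than in MC38 and 2 than in Pan02. In the same order 1, 8, 6 and 5 were lower. Over all genes 9.71% were higher and 13.7% lower. The heart factor Gata4 was counted at 4.29, 5.01 and 4.10 CPM in EO771, above B16 and MC38 but below LL2 with a mean of 16.7 CPM, and was not called without MC38. Gata6, its relative, was lower at 0.159, 0.509 and 0.261 CPM against a median of 9.61 CPM (log2 fold change -3.68, SE 0.53).

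Epithelial identity was unusual in its keratins. Krt8 and Krt18, which form a pair in simple epithelia, parted in EO771. Krt8 was counted at 1228, 1197 and 1259.5 CPM, within the Pan02 range of 826 to 1308 CPM and above LL2 (182 to 287 CPM), MC38 (2.88 to 54.8 CPM) and B16 (1.65 to 3.61 CPM). Krt18 was counted at 3.55, 3.06 and 2.18 CPM, near B16 and MC38 and far below LL2 (266 to 431 CPM) and Pan02 (924 to 1333 CPM). The log2 fold changes were 4.34 (SE 0.50, edgeR adjusted p = 8.5e-06) for Krt8 and -3.58 (SE 0.26, edgeR adjusted p = 1.5e-07) for Krt18. Per kilobase of exon, the EO771 levels were 685 CPM for Krt8 and 2.10 CPM for Krt18, against 129.7 and 245 CPM in LL2 and 585 and 769 CPM in Pan02 in the same order.

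Of 4 basal keratins 3 were tested, and Krt17 and Krt14 were called higher. Krt17 had 89.6, 55.0 and 61.4 CPM in EO771 and a median of 0.498 CPM in the others, where an LL2 tumor with 29.9 CPM was the highest (log2 fold change 6.06, SE 0.82, edgeR adjusted p = 3.7e-05). Krt14 had 5.88, 10.0 and 10.9 CPM, overlapped with the others (0 to 33.4 CPM), and lost its call without B16 or without MC38 in the mean. Krt5 stood at 0.106, 0 and 0 CPM with no call, and Trp63, the master regulator of basal epithelium, was at 0 in all 3 EO771 tumors. In the list of 29 tested mammary and epithelial genes, 6 were higher and 10 lower, against 9.71% and 13.7% over all genes. The median log2 fold change of the list was -0.84, and leaving Pan02 out of the mean reduced the lower genes to 6. Krt19 and Krt7 lost their calls without Pan02, and the log2 fold change of Krt7 turned from -1.87 to 0.32.

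Of 6 tested adhesion and junction genes 3 were lower, and of 3 hormone receptors 2 were lower, against 13.7% over all genes. Epcam, the pan-epithelial adhesion molecule, was counted at 0.953, 0.594 and 0.871 CPM, and Cdh1, encoding E-cadherin, at 4.02, 4.67 and 6.80 CPM, with no call for either. Esr1, the estrogen receptor, had 2.12, 1.95 and 2.00 CPM in EO771 and was below all 12 other tumors, which ranged from 2.87 to 13 CPM (log2 fold change -2.05, SE 0.34, edgeR adjusted p = 0.00021). The casein gene Csn3 was at 0.0530, 0 and 0.0871 CPM. Of these markers of breast epithelium, EO771 tumors thus carried Krt8 and Krt17, and Krt14 and Cdh1 at lower levels. Krt18 was under 4 CPM, Epcam under 1 CPM, and Krt5 and Csn3 under the 0.225 CPM that 3 counts make in EO771. Of 8 tested epithelial regulators 3 were higher and 1 lower, and none of 4 tested luminal regulators was called. Ovol1, an epithelial zinc finger factor, was higher than in all 4 models (10.0, 5.52 and 4.18 CPM against at most 1.73 CPM), although 25.8% of its exon bases overlap another gene and the libraries do not keep strand.

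**Figure D2:**
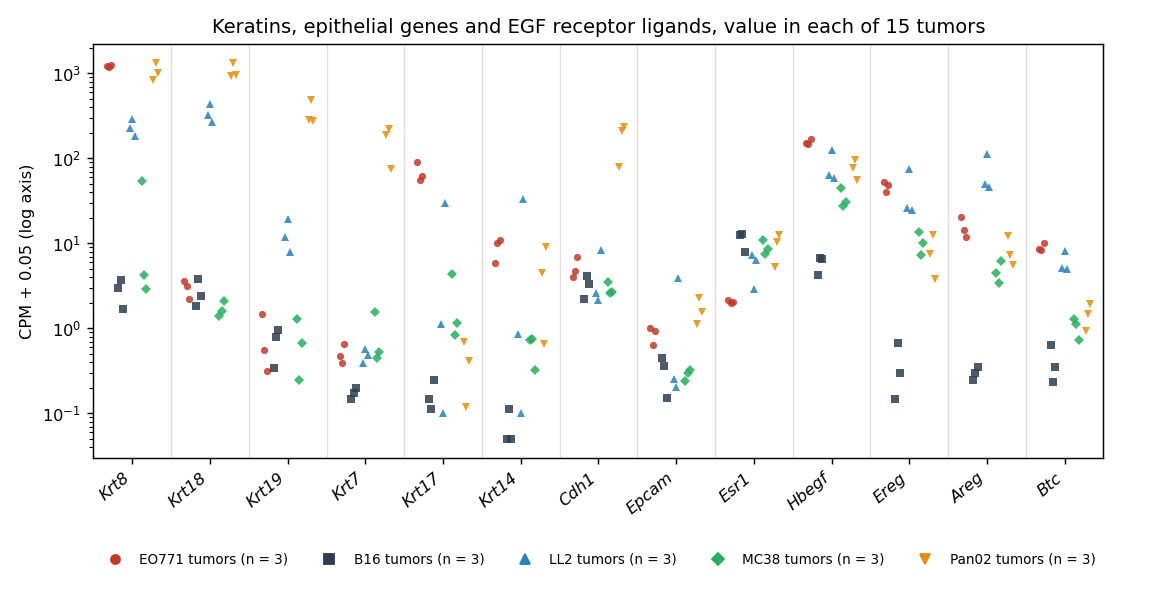
Keratins, other epithelial genes and EGF receptor ligands (horizontal axis) in each of the 15 tumors (vertical axis, CPM + 0.05 on a log scale), with 1 point per tumor and 1 symbol per model. The 3 EO771 tumors stand with Pan02 for Krt8, near 1228 CPM, and with B16 and MC38 for Krt18, near 2.93 CPM.

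In the ErbB growth factor system, 4 of 9 tested ligands were higher and 1 lower, with a median log2 fold change of 0.02, against 9.71% and 13.7% over all genes. None of 3 tested receptors was higher, and the difference between ligands and receptors was not tested. Egfr had 14.6, 13.9 and 16.2 CPM, Erbb2 had 63.4, 74.1 and 66.1 CPM against a median of 65.0 CPM elsewhere, and Erbb3 was lower (6.57, 5.43 and 4.71 CPM), but not without B16. Hbegf, a membrane-bound EGFR ligand, was counted at 152, 147 and 171 CPM, above all 12 others (4.22 to 124 CPM, log2 fold change 2.23, SE 0.20, edgeR adjusted p = 8.5e-07). Ereg had 53.3, 40.2 and 48.5 CPM and Btc 8.58, 8.41 and 10.0 CPM, with log2 fold changes of 3.01 and 2.78. Areg, at 20.2, 14.3 and 11.8 CPM, was called through the low level in B16 and not without it (log2 fold change 0.15 without B16).

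Tgfb1, the main TGF-beta ligand, was counted at 393, 407 and 404 CPM (401 ± 7.39 CPM, SD, n = 3). B16 tumors held 94.0 to 142 CPM, LL2 173 to 200.2 CPM, MC38 174 to 195 CPM and Pan02 287 to 369.9 CPM. EO771 tumors were above all others, and the log2 fold change was 1.09 against the mean (SE 0.11, edgeR adjusted p = 1.8e-06) but 0.31 against Pan02, which was not called. Without B16 in the mean the log2 fold change was 0.84 and the call was lost on size. Tgfb2 had 15.1, 15.5 and 17.6 CPM, also with Pan02 at a similar level (16.7 to 29.8 CPM), and Tgfb3 had 32.4, 34.0 and 34.7 CPM with no call.

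Further along the pathway, 7 of 40 tested genes were higher and 6 lower, with a median log2 fold change of 0.12, against 9.71% and 13.7% over all genes. By role, 2 of 3 ligands were higher, and none of 5 receptors or 3 signal transducers was called. Receptor levels were 105, 129 and 154 CPM for Tgfbr2 and 48.7, 61.3 and 54.7 CPM for Tgfbr1. Ltbp1, which ties latent TGF-beta to the matrix, was lower at 39.7, 39.8 and 43.6 CPM against a median of 219.7 CPM, while the protease gene Furin, which cleaves the precursor, was higher at 643, 706 and 681 CPM. The integrin chain Itgb8, an activator of latent TGF-beta, was called lower at 0, 0.255 and 0.174 CPM, a call lost without Pan02.

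Among targets and feedback inhibitors, Tgfbi, a secreted matrix adaptor, had 1016, 1036 and 1265 CPM in EO771, above all 12 other tumors at 46.5 to 639 CPM (log2 fold change 2.19, SE 0.19, edgeR adjusted p = 5.7e-07). Smad7, the inhibitory Smad, was higher at 136, 142 and 183 CPM, above the 10.2 to 107 CPM of the others. Its relative Smad6 and the decoy receptor Bambi were lower, at 1.80, 1.27 and 1.74 CPM and at 1.27, 1.44 and 2.44 CPM. Fn1, encoding fibronectin and often listed as a target, was lower at 349, 398 and 580.3 CPM against a median of 1246 CPM, and Ctgf was not called (53.5, 49.3 and 57.6 CPM). The targets did not move as 1 group, with 3 of 8 higher and 1 lower. Leaving out B16 ended the calls of Furin, Id1 and Bambi, leaving out LL2 that of Tgfb2, and leaving out Pan02 those of Ltbp1 and Fn1. The pathway then held 4 genes higher and 9 lower without B16, and 11 higher and 2 lower without Pan02. Against single models, 20 of the 40 were higher than in B16 and 20 lower than in Pan02.

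**Figure D3:**
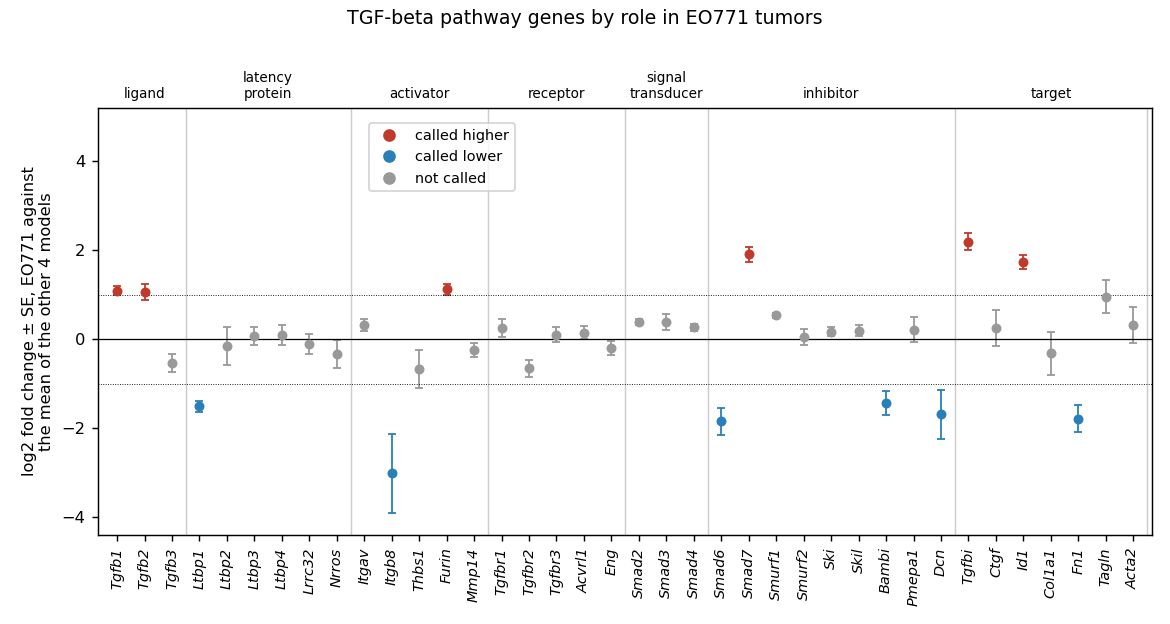
Log2 fold change in EO771 against the mean of the other models (vertical axis, points with bars of 1 standard error) of 38 TGF-beta pathway genes ordered by role, colored by call, with dotted lines at 1 and -1. Of the genes drawn Tgfbi lies highest at 2.19, and receptors and signal transducers lie between the dotted lines. The other 2 of the 40 tested are not drawn.

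Among the 5 most abundant genes called higher were Rhob, a small GTPase of endosomes and stress fibers, with 3183, 2740.3 and 2667 CPM and a log2 fold change of 2.85, and Fbln2, a matrix glycoprotein, with 1505, 2033 and 2047 CPM and a log2 fold change of 3.25. Sdc1, the heparan sulfate proteoglycan syndecan-1, had 1807, 1768 and 1924 CPM, and Calu, a calcium-binding protein of the secretory pathway, had 1711, 1638 and 1690.5 CPM. Rhob, Sdc1 and Calu were above every other tumor, whereas Fbln2 overlapped with the others, which reached 1545 CPM.

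Of 10 growth driver genes on the list 5 were higher, 5 were not called and none was lower, with a median log2 fold change of 0.99, against 9.71% higher over all genes. Ccne1, encoding cyclin E1, had 98.3, 101 and 104 CPM, above all 12 others (7.22 to 60.3 CPM, log2 fold change 2.04, SE 0.13, edgeR adjusted p = 4.1e-08), and Braf had 83.7, 88.7 and 89.0 CPM against 24.2 to 72.3 CPM. Ccnd2, encoding cyclin D2, had 686, 798 and 818 CPM against at most 559 CPM. Myc was higher than in B16, MC38 and Pan02 at 833, 694 and 761 CPM, but LL2 reached 734 to 1062 CPM.

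Cell cycle inhibitors and suppressors were mixed. Cdkn1a, encoding p21, was higher at 601, 547 and 568 CPM, and Cdkn2c, encoding p18, was lower than in every other tumor, with 22.2, 22.0 and 18.9 CPM against 37.9 to 130.3 CPM (log2 fold change -1.75, SE 0.14, edgeR adjusted p = 3.4e-07). Trp53 (178, 174 and 162 CPM) was not called. Of 24 proliferation genes none was higher and only Mki67, the marker Ki-67, was lower, at 70.9, 68.6 and 77.6 CPM against 85.6 to 356 CPM (log2 fold change -1.30, SE 0.16, edgeR adjusted p = 2e-05). The other 23 were not called, and over all genes 9.71% were higher and 13.7% lower. By model, 10 of the 24 were higher than in Pan02 and none lower. Against the other models none was higher, and 5 were lower than in B16, 5 than in MC38 and 1 than in LL2. The summed level was 2436 to 2872 CPM in EO771 and 1268 to 1988 CPM in Pan02. It was 3077 to 3261 CPM in LL2, 3676 to 5413 CPM in B16 and 4028 to 4831 CPM in MC38.

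Hox genes keep a record of the body position a cell came from. Of 32 tested 4 were higher and 15 lower, against 9.71% and 13.7% over all genes, and differences between clusters were not tested. Of 11 Hoxa genes 9 were lower and none higher, with a median log2 fold change of -3.95. Hoxa5 was counted at 0.900, 0.594 and 0.436 CPM in EO771 and at 5.61 to 37.8 CPM in the 12 others (log2 fold change -4.23, SE 0.33, edgeR adjusted p = 2.6e-07). Hoxa3 and Hoxa6 were likewise below every other tumor, and Hoxa10 was an exception in the cluster, with 9.11, 10.2 and 8.37 CPM and no call. Of 9 tested Hoxb genes 3 were lower and none higher (median log2 fold change -0.93), and of 6 Hoxc genes 1 was higher. In the Hoxd cluster 3 of 6 tested genes were higher and 3 lower. Hoxd10 had 20.4, 20.0 and 20.2 CPM against 0 to 12.4 CPM (log2 fold change 3.43, SE 0.26), whereas Hoxd8, Hoxd9 and Hoxc6 lost their calls without B16, in which they averaged 0.588 to 1.29 CPM. Overlapping genes share 24.8% of the exon bases of Hoxa11, 25.1% of Hoxa3 and 23.3% of Hoxa7.

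Interferon response genes were lower in EO771 as a group. Of 25 tested, 17 were lower and none higher, with a median log2 fold change of -1.38, against 13.7% lower over all genes. Irf1, an interferon gamma response factor, had 52.2, 60.4 and 52.8 CPM, below all 12 others (100 to 466 CPM, log2 fold change -2.09, SE 0.23, edgeR adjusted p = 5e-06). Gbp2 and Gbp3, GTPases of cell-autonomous defense, were lower with log2 fold changes of -2.62 and -2.19. By model, 24 of the 25 genes were lower than in MC38, 14 than in B16, 10 than in Pan02 and 2 than in LL2. The count of 17 was 10 with MC38 left out of the mean, 11 without EO771 tumor 2 and 10 without EO771 tumor 3. The summed level was 619 to 673 CPM in the EO771 tumors, 4336 to 5199.8 CPM in MC38 and 442 to 2162 CPM in LL2, and the EO771 tumors lay within the LL2 range.

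Of 13 MHC class I pathway genes, which present antigen to CD8 T cells, 6 were lower and none higher (median log2 fold change -0.90), against 13.7% lower over all genes, and 3 were lower without MC38 in the mean. By model, 9 of the 13 were lower than in MC38, 7 than in B16, 4 than in Pan02 and 1 than in LL2. H2-K1, a classical class I heavy chain, had 537, 599 and 527 CPM against a median of 1995 CPM (log2 fold change -1.78, SE 0.36, edgeR adjusted p = 0.001). The immunoproteasome subunit Psmb10 had 49.0, 46.4 and 40.2 CPM, below all 12 others, which began at 53.1 CPM. B2m, the invariant chain, had 984, 954 and 849 CPM with no call. None of 9 class II genes was called against the mean of the models, but 8 of the 9 were lower than in Pan02 (median log2 fold change -1.84), with 404, 513 and 370.3 CPM for H2-Ab1 inside the 114 to 2409 CPM of the others.

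**Figure D4:**
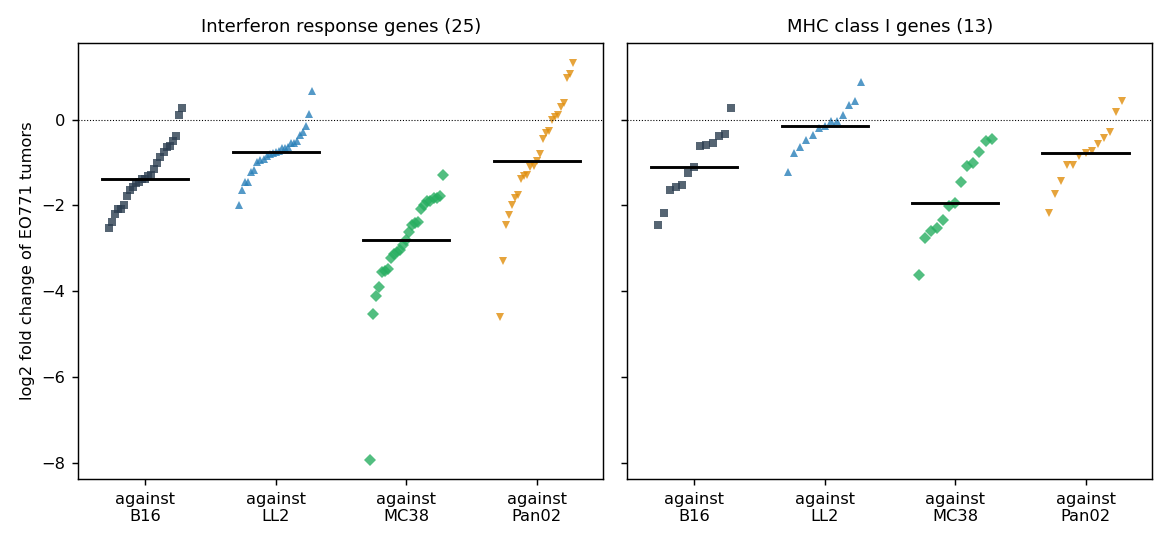
Log2 fold change of EO771 (vertical axis) against each other model (horizontal axis) for 25 interferon response genes and 13 MHC class I genes, with 1 point per gene and a bar at the median. The medians for the interferon genes were -1.38 against B16, -0.75 against LL2, -2.81 against MC38 and -0.96 against Pan02, and the 4 sets of points share the EO771 tumors.

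Checkpoint ligands and immunosuppressive factors changed in both directions. Nt5e, encoding CD73, which makes adenosine from AMP, was counted at 137, 134 and 156 CPM, and no other tumor exceeded 17.9 CPM (log2 fold change 4.36, SE 0.19, edgeR adjusted p = 2.1e-09). Pvr, a ligand of TIGIT and CD226, had 219, 192 and 199.8 CPM against 33.6 to 91.6 CPM and was higher than in all 4 models. Ptges, the prostaglandin E synthase, had 164, 120.4 and 147 CPM but LL2 held a mean of 541 CPM, and the call was lost without B16. The prostaglandin-producing cyclooxygenase gene Ptgs2 was lower at 2.28, 1.19 and 2.09 CPM against a median of 65.1 CPM (log2 fold change -4.54, SE 0.79, edgeR adjusted p = 0.00029). Arg1 had 13.5, 14.1 and 16.6 CPM and lay below all others, Nos2 had 10.0, 6.62 and 8.19 CPM and also lay below all others, and Ido1 was at 0, 0 and 0.349 CPM. Cd274, encoding PD-L1, was lower at 18.9, 18.5 and 17.0 CPM against a median of 47.4 CPM (log2 fold change -1.37, SE 0.41, edgeR adjusted p = 0.012), with adjusted p = 0.051 by edgeR when EO771 tumor 3 was left out. Of 21 genes in the list, 3 were higher and 5 lower, against 9.71% and 13.7% over all genes.

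Among chemokines and colony-stimulating factors 1 of 27 was higher and 8 were lower, with a median log2 fold change of -1. Over all genes 9.71% were higher and 13.7% lower. The 1 higher gene was Il34, the second ligand of the CSF1 receptor, with 98.1, 97.9 and 119.8 CPM against 1.05 to 34.5 CPM (log2 fold change 2.98, SE 0.18, edgeR adjusted p = 2.4e-08). Csf1, the first ligand, had 189, 191 and 187 CPM and no call. Lower genes included the neutrophil attractants Cxcl2 and Cxcl3, the T cell attractant Cxcl10 (25.7, 22.5 and 25.3 CPM) and Ccl3 (1.69, 1.36 and 1.05 CPM, below all others). The count of lower genes was 4 without EO771 tumor 2 and 13 without B16 in the mean.

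Lists of infiltrating immune cells gave different counts, to be read against 9.71% higher and 13.7% lower over all genes. Against the mean of the models none of 16 macrophage genes was lower. Only Mrc1, the mannose receptor, was higher (209.5, 222 and 314 CPM), a call lost without B16 or without MC38. By model, 11 of the 16 were higher than in B16 and 0 lower, while 8 were lower than in Pan02 and 0 higher. Against LL2 2 were lower and 0 higher, and against MC38 1 was higher and 0 lower. The summed level was 5379 to 5726 CPM in EO771, 2741 to 4608 CPM in B16 and 8915 to 22885 CPM in Pan02. Adgre1, encoding F4/80, had 114, 127 and 109.9 CPM, within the 39.6 to 171 CPM of the others. Of 18 dendritic cell genes, Itgax was higher at 88.2, 112 and 89.9 CPM. Xcr1 and Clec9a, which mark cross-presenting cells, were lower at under 1 CPM, as was Irf4 at a mean of 1.34 CPM. By model, 8 of the 18 were lower than in Pan02 and 3 than in each of B16, LL2 and MC38. In turn 2 were higher than in LL2 and 1 than in each of B16, MC38 and Pan02. Neutrophil genes numbered 3 of 8 lower, all under 1 CPM in EO771, and none was lower without LL2 in the mean.

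For T cells, the receptor genes were not called: Cd3e had 2.01, 3.06 and 4.36 CPM and Cd8a 2.17, 4.67 and 3.05 CPM, against medians of 7.23 and 10.6 CPM. Tnfrsf9, the co-stimulatory receptor 4-1BB, was higher at 139, 126 and 152 CPM, above all 12 others (8.28 to 85.5 CPM, log2 fold change 2.01, SE 0.17). All 21 T cell genes together summed to 229 to 278 CPM in EO771, and the 6 receptor complex genes had a median log2 fold change of -1.15. Which cells gave the Tnfrsf9 RNA was not tested. Ikzf2, the regulatory T cell factor Helios, was lower. DESeq2 called 4 of the 21 T cell genes lower. NK and cytotoxic genes were lower for Prf1, encoding perforin (2.44, 2.29 and 2.61 CPM, below all others), Gzmb (4.93, 6.79 and 8.80 CPM) and Eomes, 3 of 10, with a summed level of 18.0 to 24.7 CPM in EO771 against 171 to 190.1 CPM in MC38. B cell genes were higher for 4 of 6 but at low level: Cd79a had 8.58, 5.01 and 5.66 CPM, and only 2 of the 6 were higher in several of the alternatives. By model, 5 of the 6 were higher than in B16 and 3 than in LL2. Against MC38 1 was higher and 1 lower, and against Pan02 0 were higher and 1 was lower. The summed level of 20.0 to 25.4 CPM in EO771 lay within the ranges of MC38 (19.2 to 27.4 CPM) and Pan02 (17.5 to 234 CPM). The median log2 fold change was 1.28, or 0.75 with genes at 0 set to the floor.

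Stromal genes placed EO771 between B16, which was low, and Pan02, which was high, and LL2 and MC38 also lay between them. Summed collagen levels were 11834 to 18750.5 CPM in EO771, 9755 to 19818 CPM in LL2 and 7046 to 18401 CPM in MC38. Of 27 collagen genes 11 were higher and 4 lower against the mean, with 9.71% higher and 13.7% lower over all genes. By model, 17 were higher than in B16 and 13 lower than in Pan02, and without B16 in the mean 4 were higher. Col7a1, the anchoring fibril collagen, had 303, 501 and 570.0 CPM against a median of 67.5 CPM (log2 fold change 3.31, SE 0.32, edgeR adjusted p = 2e-06). Col6a3 had 1126, 1402 and 1681 CPM, and the cartilage collagen Col2a1 14.9, 11.1 and 11.9 CPM. The major fibrillar collagens were not called, with 1597, 2477 and 3388 CPM for Col1a1 and 932, 1204 and 2115 CPM for Col3a1. Col4a5, a basement membrane chain, was below all others at 0.265, 0.170 and 0.0871 CPM.

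Fibroblast genes were mixed as well, with 4 of 20 higher and 4 lower, against 9.71% and 13.7% over all genes. Cspg4, the proteoglycan NG2, was higher than in all 4 models (42.2, 40.3 and 38.3 CPM against at most 14.7 CPM), Postn was higher at 291, 527 and 803 CPM but not without B16, and Dcn (19.3, 40.4 and 76.9 CPM) and Dpt were lower. For these stromal genes EO771 tumor 1 gave the lowest Col1a1, Postn and Dcn levels of the 3, and without it none of the fibroblast genes was lower. Of 16 matrix metalloproteinases and inhibitors, 3 were higher and none lower against the mean, with 9.71% higher and 13.7% lower over all genes. By model, 11 were higher and 1 lower than in B16, and 0 were higher and 8 lower than in Pan02. Against LL2 3 were higher and 2 lower, and against MC38 4 were higher and 1 lower. The summed level was 2323 to 2893 CPM in EO771, 908 to 1314 CPM in B16 and 5219 to 7584 CPM in Pan02. Mmp13, a collagenase, had 157, 162 and 220.2 CPM against a median of 17.4 CPM (log2 fold change 3.02, SE 0.23, edgeR adjusted p = 2.2e-07), with Pan02 at a mean of 167 CPM. Mmp10 had 16.1, 34.7 and 34.1 CPM, and Mmp12, a macrophage elastase, 203, 186 and 159 CPM, called with B16 in the mean but not without it.

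Vessel genes are given against 9.71% higher and 13.7% lower over all genes. Of 15 endothelial genes 3 were higher and 12 not called, among them Cldn5, the tight junction claudin of endothelium, with 26.9, 36.1 and 29.5 CPM against a median of 9.24 CPM. Of 3 lymphatic genes 2 were lower, Lyve1 (4.77, 1.87 and 2.00 CPM) and Prox1 (0.159, 0.255 and 0 CPM), and the difference from the endothelial genes was not tested. Angiogenic factors were lower for 4 of 8, with Angpt1 at 0.953, 0.425 and 0.523 CPM, below all others, and Vegfa at 223, 197 and 217 CPM with no call. In the hypoxia and glycolysis list 4 of 23 were higher and 2 lower. The lactate exporter Slc16a3 had 967, 869 and 910.1 CPM (log2 fold change 1.70, SE 0.10), whereas Car9, the classic hypoxia-induced carbonic anhydrase, was below all others at 3.71, 2.46 and 2.00 CPM against 10.6 to 131 CPM (log2 fold change -4.17, SE 0.71, edgeR adjusted p = 0.00026).

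**Figure D5:**
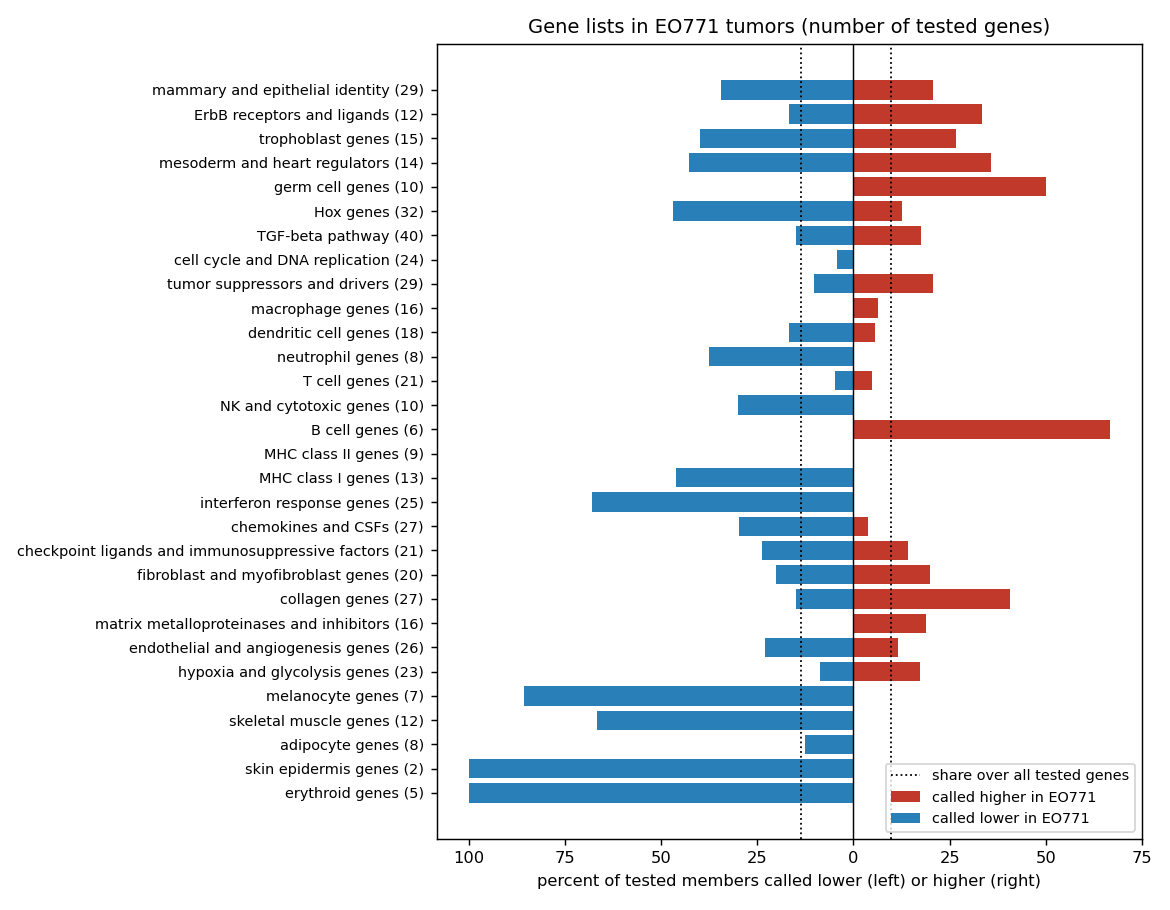
Percent of the tested genes of each list called lower (bars to the left) or higher (bars to the right) in EO771, with dotted lines at the share over all genes tested, 13.7% lower and 9.71% higher. Bars of short lists rest on few genes, such as 2 for the skin epidermis list, and of the longer lists the interferon genes had 17 of 25 lower.

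Genes of other tissues were among those lowered most. Skeletal muscle genes were lower for 8 of 12, against 13.7% over all genes. Their summed level was 12 to 15.3 CPM in the EO771 tumors, 7.37 to 7.71 CPM in B16, 6.86 to 1313 CPM in LL2, 471 to 3896 CPM in MC38 and 54.3 to 1039 CPM in Pan02. EO771 and B16 tumors held little muscle RNA, and the other models varied widely between tumors of 1 model. The muscle genes Pvalb, Mybpc2, Myh1 and Myh4 were 4 of the 12 genes lowered most. All 12 were chosen with the 3 EO771 tumors below the other 12 tumors. Pvalb was at 0 in every EO771 tumor, at least 208-fold lower than in MC38 at the floor of 3 counts, and Myh1 had 0.106, 0.0849 and 0.0871 CPM against 0.200 to 251 CPM. The count of 8 was 3, 4 and 4 without EO771 tumor 1, 2 and 3, and 5 without B16 tumor 3, and Pvalb, Mybpc2 and Myh1 each lost the call in at least 2 of the fits that left out 1 tumor. Red cell genes were lower for 5 of 5 (summed 11.7 to 21.6 CPM in EO771), with 0 lower without EO771 tumor 2 and 2 without tumor 3. Melanocyte genes were lower for 6 of 7 and for none without B16. Fabp4 was the 1 of 8 adipocyte genes called lower, Krt10 and Lor of the epidermis were lower at under 1 CPM, and Xist, a check of female tissue, was not called (39.9, 58.4 and 64.7 CPM). The part of muscle, blood, fat, skin or pigment cells in these differences was not tested.

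The remaining genes lowered most were not muscle genes. Efna5, a membrane-anchored ephrin that guides cell contacts, was counted at 0.636, 0.0849 and 0.784 CPM in EO771 and at 8.29 to 109 CPM in the others (log2 fold change -5.93, SE 0.38, edgeR adjusted p = 4.6e-08). Psrc1, a spindle microtubule protein, had 0.794, 1.10 and 0.784 CPM against 16.6 to 105 CPM (log2 fold change -5.39, SE 0.32, edgeR adjusted p = 2.4e-08). These genes were present in every tumor of the other 4 models and close to absent in EO771. Proser2 (0.159, 0.0849 and 0.523 CPM against 2.82 to 26.7 CPM), the lipid acyltransferase gene Mboat2 (0.0530, 0.0849 and 0.349 CPM against 0.376 to 72.0 CPM) and the transcription factor gene Onecut2 (0.159, 0.0849 and 0 CPM against 0.876 to 64.6 CPM) were also lower than in all 4 models. Soga3 and Serpinb2, encoding the plasminogen activator inhibitor PAI-2, were lower than in all 4 models, and Wipf3 than in 3 of them. Fitted fold changes of genes this near 0 depend on the prior count of the fit.

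The sorted CAF libraries gave another readout of the same models, as RPKM in a separate table, which was described by its values and not tested, with no levels compared across the tables. Hand1 stood at 49.3 and 46.5 RPKM in the EO771 CAFs and at no more than 0.0230 RPKM in the 6 CAF libraries of the other models. Esx1 stood at 734 and 743 RPKM against at most 3.77 RPKM, and Sohlh2 at 9.22 and 9.62 RPKM against at most 0.0920 RPKM. All 12 genes raised most in the tumors were above the other 6 libraries in both EO771 CAF libraries. The keratin split was present too, with Krt8 at 492 and 495 RPKM and Krt18 at 0.729 and 1.40 RPKM. Tgfb1 stood at 101 and 111 RPKM against 28 to 83.3 RPKM, and Nt5e at 13.9 and 15.3 RPKM against at most 2.52 RPKM.

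Over the 384 genes higher than all 4 models in the tumors, 314 (81.8%) were above the other 6 libraries in both EO771 CAF libraries, against 17.6% over all genes tested. Over the 374 lower than all 4 models, 244 (65.2%) were below, against 16%. Fap, the gene of the protein used for sorting, was at 6.46 and 7.16 RPKM in EO771 CAFs, inside the range of 1.89 to 11.4 RPKM of the others, and Col1a1 at 3773 and 3362 RPKM was above them (467 to 2771 RPKM). The CAF libraries of EO771 thus held collagen RNA together with Krt8, Hand1 and Esx1 RNA, and whether these came from the same cells was not tested.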

How the data were processed

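RNA was measured in fragments of 15 tumors and in 8 libraries of sorted CAFs, as unstranded libraries of polyadenylated RNA. The tumor table, as deposited by the authors, holds estimated counts per transcript in steps of 0.5, made with STAR 2.5.0c on mm10 and HOMER. The CAF table, as deposited by the authors, holds RPKM values, and its names show the model but not the library. Per the labels DESeq2 was also used, and the study's methods name it for differential expression. The 5 columns of another tumor model were not analysed here.

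Of 40458 transcripts, 2 name no gene (2.08e-05% of counts) and were left out. The row with the largest mean count stood for each of 24940 symbols, 69.4% of which have 1 row. After rounding, the counts of all 15 tumors entered 1 quasi-likelihood model in edgeR 4.0.16, with a term per model, TMM scaling, edgeR's default filter on low counts and a common dispersion of 0.0559. A call took a log2 fold change of 1 in size together with a Benjamini-Hochberg adjusted p below 0.05. On simulated counts for 15732 genes, 95 of 100 genes changed by 1.5 and 97 of 100 changed by 3 on the log2 scale were recovered, with 3 false calls. The simulation gave every gene the same dispersion and, apart from the changed genes, the same level in all models. These counts therefore do not measure the error rates in the tumors. Replicate tumors differed far beyond counting noise (chi-square per gene 5.14 to 11.3 within EO771). Low levels rest on few reads: 3 counts are 0.225 CPM in EO771, and such limits cover counting error only.

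The genes named were Hand1, Sohlh2 and Tgfb1, the 12 raised and 12 lowered most with no overlap between groups and at least 10 CPM on the higher side, the 5 most abundant called higher, up to 3 called in each direction and 2 not called per list, and other list members with their values. Some genes that this rule takes are not reported here. Members and lists were chosen with earlier results of these data known. The counts of restricted and absent genes were recomputed under alternatives chosen after seeing the data. Promoter sequences came from RefSeq GRCm38.p6, with an entry for 8 of the 12 genes raised most, and shared exon bases from GENCODE vM21 gene models. Alternatives were DESeq2 1.42.0, other scalings, filters and transcripts, the replicate number as a block, and leaving out each tumor or each other model.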

Additional observations from a re-analysis of the deposited data

Results flagged for a closer look

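Ccl3 and Col14a1 were lower in EO771 tumors but higher in EO771 CAFs than in the same 3 models (LL2, MC38 and Pan02), with every library on its side. Ccl3, a chemokine of myeloid cells, averaged 1.37 CPM in the EO771 tumors and ranged from 2.15 to 12.2 CPM in the tumors of the other models, whereas the EO771 CAF libraries held 3.24 and 4.06 RPKM against 0 to 0.551 RPKM. Col14a1, a fibril-associated collagen, averaged 7.75 CPM in the EO771 tumors against 11.4 to 138 CPM, and the EO771 CAF libraries held 46.5 and 48.9 RPKM against 8.83 to 40 RPKM. The tables have different units, and the difference between tumors and CAFs was not tested.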

How the results depend on the processing

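Over 26 alternatives the genes called higher numbered 1331 to 1804 and those called lower 1730 to 2346, against 1528 and 2149, and no change of scaling moved the median log2 fold change by more than 0.01. DESeq2 called 1505 of the 1528 and 2083 of the 2149, and gave no adjusted p for 18 tested genes. Leaving out 1 tumor gave 1487 to 1670 higher, 1730 to 2218 lower, 353 to 429 higher than all 4 models and 323 to 391 lower than all 4. With 1 model left out of the comparison, fewer contrasts had to be met: 706 genes were lower than each of the 3 remaining models without B16, 649 without LL2 and 590 without MC38, and 587 were higher than each without Pan02. Restricted genes numbered 0 with total-count scaling, 2 without B16, 2 without LL2 and 21 without MC38, and 1 to 7 with 1 tumor left out. Absent genes numbered 3 without B16, 1 without LL2 and 8 without Pan02, and 0 to 1 with 1 tumor left out. Of 244 named genes 149 kept their side of the threshold in all alternatives, and 2 reversed: Mitf, at 1.11 without B16, and Krt7, at 0.32 without Pan02. The cause of these changes was not tested. The replicate numbers were not used to pair tumors in the main fit. In deviations from the model means, the 30 same-number pairs had correlations of -0.17 to 0.23, with a median of 0.006 and 5 above 0.1. Of 15 tumors 3 correlated best with their own number. Whether the numbers mark a shared batch was not tested. With the replicate number as a block, 1541 genes were higher, 2099 lower, 388 higher than all 4 and 359 lower than all 4. With 3 tumors per model, calls on genes under 1 CPM rest on a few reads.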

Other observations

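Of 315 windows of 5 Mb (mm10) with at least 15 genes, that from 50 to 55 Mb on chromosome 6 had the lowest median log2 fold change, -1.11, with 15 of its 29 genes called lower in EO771. Over all genes tested 13.7% were called lower. The median was -1.91 against B16, -0.37 against LL2, -0.62 against MC38 and -0.59 against Pan02. It holds the Hoxa cluster described above, and it was chosen after its values were seen.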
